A study of Mus musculus with 2 samples.

Results

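The Hox genes of the mouse were examined in accessible chromatin of the cerebral cortex, a forebrain tissue. Members were the 39 protein-coding genes of the GENCODE annotation of mm10 whose symbol is Hoxa, Hoxb, Hoxc or Hoxd followed by a number, out of 21755 protein-coding genes on chromosomes 1 to 19 and X. They form 4 clusters of 11 (Hoxa), 10 (Hoxb), 9 (Hoxc) and 9 (Hoxd) genes, and every peak, footprint and rate entry was read from 50 kb before to 50 kb after each cluster. The rule uses symbols and positions only, and it was set with earlier results of these data known.

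DNase-seq, which maps the DNA that the nuclease DNase I can cut in nuclei, was run on left cerebral cortex tissue. The mice were females aged 36 days of the strain B6CASTF1/J, first-generation hybrids of B6 and CAST parents. Each of 2 animals gave 1 library, numbered replicate 1 and replicate 2 by the labels, which list both animals under a shared donor entry. Both libraries belong to 1 group, so nothing was tested between conditions and no p-value is given. Whole cortex mixes neurons, glia and vessel cells, so a low signal cannot separate few open cells from weak opening in all cells. The strains' alleles were not told apart.

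Hox genes encode homeodomain transcription factors that give cells their position along the head-to-tail axis of the embryo. The genes of a cluster lie in the order in which they are used, from group 1, used nearest the head, to group 13, used nearest the tail, and genes with the same number in different clusters are paralogues. In the embryonic neural tube they are active in hindbrain and spinal cord, and the forebrain forms ahead of their domain. Where they are silent, the clusters are classic targets of Polycomb repressor complexes, and the insulator protein CTCF is known to bind at several places within them.

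Hox promoters were almost all closed in the cortex of both mice, closed meaning that no region was called there in both libraries. A region called in both libraries came within 1 kb of a start in only 2 of the 39 genes, Hoxa7 and Hoxa10, or 5.13%, against 61.6% of all protein-coding genes. This count used the shorter of the 2 deposited peak lists of each library, and a region is a set of overlapping peaks (1 bp or more). In replicate 1 alone 5 genes had such a peak (Hoxa7, Hoxa10, Hoxc5, Hoxd3 and Hoxd12), against 63.9% of all genes. In replicate 2 alone there were 4 (Hoxa7, Hoxa9, Hoxa10 and Hoxa11), against 62.8%. With the longer lists, which reach weaker sites, a region called in both was found at 7 of the 39 genes (Hoxa7, Hoxa9, Hoxa10, Hoxb3, Hoxc5, Hoxc6 and Hoxd3), against 66.1%.

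The closed starts included CpG-rich ones. Unmethylated promoters rich in the dinucleotide CpG are open in most tissues, and 95.8% of 7423 protein-coding genes with a CpG observed over expected ratio of at least 0.75 (500 bp on each side of a start) had a promoter region called in both. Among the 18 Hox genes above the same limit only Hoxa7 had one, or 5.56%. The median ratio was 0.722 over Hox genes and 0.631 over all protein-coding genes, so the family was not poorer in CpG than the rest. Hoxd8 had the highest ratio of the family, 1.00, and no peak of any list lay within 1 kb of its start in any library. The Hoxa13 promoter shows such a closed CpG-rich start. It was picked by a stricter rule than closed: no position with a deposited false discovery rate under 0.05 within 1 kb in either library. The rule also asked for a RefSeq entry (22 of 39 genes matched one) and no untranslated region in the 250 bases before the start. Among the 10 Hox promoters left, that of Hoxa13 holds the most CG dinucleotides in those 250 bases, 35, where the median was 13. These bases are printed 5′ to 3′ on the minus strand of chr6:52260881-52261130 (GRCm38.p6, RefSeq), with each CG in capitals.
Hoxa13 promoter: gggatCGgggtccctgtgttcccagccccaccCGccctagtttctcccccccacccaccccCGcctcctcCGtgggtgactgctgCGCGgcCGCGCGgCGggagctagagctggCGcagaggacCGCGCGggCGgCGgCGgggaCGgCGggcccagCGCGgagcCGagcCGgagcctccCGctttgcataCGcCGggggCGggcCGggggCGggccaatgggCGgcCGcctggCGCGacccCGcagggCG

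The deposited false discovery rates of the cut rate reach below the peak threshold and left most Hox starts without an entry. A position with a rate under 0.05 lay within 1 kb of a start in both libraries at 6 of the 39 Hox genes, against 66.9% of all protein-coding genes. At 28 Hox genes no position passed in either library: 6 in Hoxa, 9 in Hoxb, 7 in Hoxc and 6 in Hoxd. In Hoxb only Hoxb3 had any entry, in replicate 2. Footprints, which are short protected stretches inside accessible sites, lay within 1 kb of a start in both libraries at 5 Hox genes, against 65.0% of all.

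**Figure D1:**
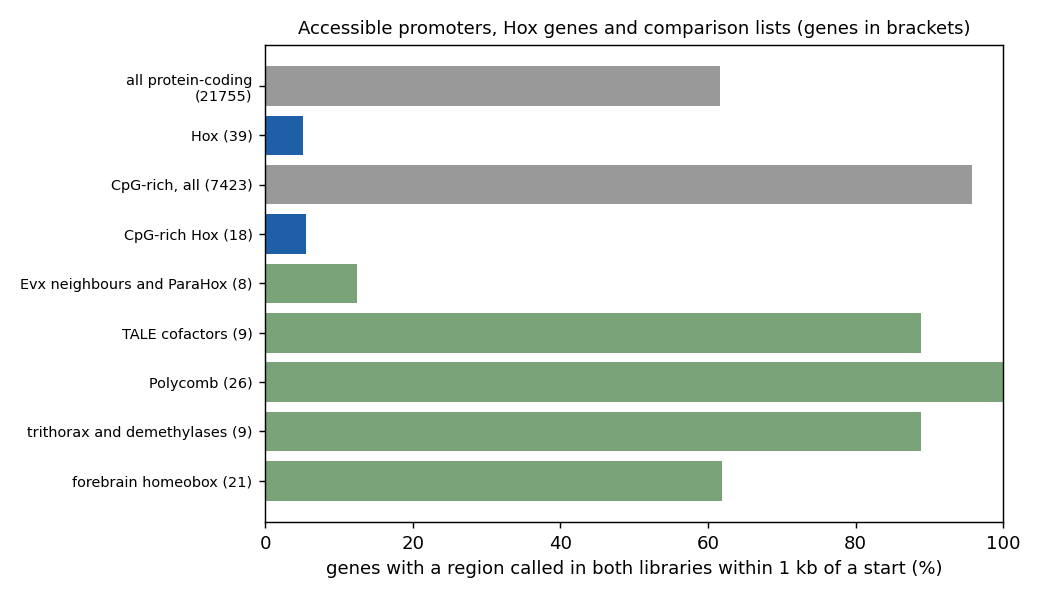
Percentage of genes with a region called in both libraries within 1 kb of an annotated start (shorter lists), for all protein-coding genes, Hox genes, the CpG-rich subset of each and 5 lists of related genes, with the number of genes in brackets. The Hox bars stand at 5.13% and 5.56%, where all genes stand at 61.6% and CpG-rich genes at 95.8%.

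Regions called in both libraries inside the clusters lay mostly away from the promoters, while those of 1 library near a start lay mostly in Hoxd and Hoxa. The 4 windows span 891.8 kb and held 47 regions of the shorter lists, of which 14 were called in both libraries, 26 in replicate 1 only and 7 in replicate 2 only. The share called in both was 29.8% in the windows and 23.1% inside the clusters, against 58.6% of all 83392 regions. Of the 14, 4 fell in the Hoxa window, 6 in Hoxb, 1 in Hoxc and 3 in Hoxd, and 9 of them lay inside a cluster. Regions called in both came at 1.57 per 100 kb in the windows and 1.83 per 100 kb inside the clusters, close to the 1.86 of the chromosomes as a whole. Within 1 kb of a protein-coding start lay 2 of the 14, or 14.3%, against 39.9% of all 48877 regions called in both. Inside the clusters a Hox start lay within 1 kb of 2 of the 9 regions called in both and of 20 of the 30 regions of 1 library. Most of those 20 belong to the runs of low peaks in Hoxd and Hoxa described below. The same share over all regions of 1 library was not computed. Of all 39 regions there, 22 were that near to a start (8 of 11 in Hoxa, 0 of 4 in Hoxb, 1 of 2 in Hoxc and 13 of 22 in Hoxd).

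The highest region of each cluster was the same in both mice and had the same place along the gene order in all 4 clusters. It lay between the first coding base of the group 9 gene and that of the next gene, which is group 8 in Hoxb, Hoxc and Hoxd and Hoxa7 in Hoxa, where group 8 does not exist. In each of these regions the best match to the binding sequence of CTCF, with up to 2 mismatches, read in the direction of Hox transcription. These traits were common: with 2 mismatches 12 of the 14 regions and 54.1% of all regions called in both held a match, and 9 of the 14 best matches read in that direction. Equally good matches on both strands were assigned to the plus strand, the direction of transcription in Hoxb, Hoxc and Hoxd. How often this decided the direction was not counted. The sequences are shown because they carry this shared position: 4 bases before the best match to a CTCF consensus of 13 positions, the match in capitals and 13 bases after it, on mm10, in the direction of transcription of each cluster.
Hoxa7 start, minus strand of chr6:52221795-52221824: aattCCAGGAGATGGCAgtgtggctccacg
Upstream of Hoxb8, plus strand of chr11:96278944-96278973: gtggCCGCTAGATGGCAtccttgctccata
Upstream of Hoxc8, plus strand of chr15:102987589-102987618: gtgaACGCGAGGTGGCGctgttgctcaatg
Upstream of Hoxd8, plus strand of chr2:74702391-74702420: ttggCCACTAGAGAGCGctgttgctccact
The match had 1 mismatch at Hoxa7, none upstream of Hoxb8, 2 upstream of Hoxc8 and 1 upstream of Hoxd8, and a footprint of each library overlapped it in all 4, as in 11 of the 14 regions. Past the match, where the consensus was not read, 6 of the 13 following positions held the same base in all 4 sites. Over the 26 bases on both sides of the match, pairs of these 4 sites shared 9 to 14 (median 13.5), where the 85 other pairs of the 14 regions shared 2 to 14 (median 8). The other pairs include sites in either orientation and within 1 cluster, so this is a description.

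The Hoxa7 region (chr6:52221681-52221920) covered an annotated start in an exon of Hoxa7, and its match lies in an untranslated part. Its height was 3.57 in replicate 1 and 1.92 in replicate 2, above 84.4% and 81.0% of all peaks of the same library. A height is the authors' value, scaled by a factor per library that is not stated, so ranks within a library are given beside it. The region upstream of Hoxb8 (chr11:96278901-96279060) lay 2845 bp from the nearest Hox start in intergenic DNA, with heights of 4.23 and 1.93, above 87.9% and 81.1% of peaks. The region upstream of Hoxc8 (chr15:102987501-102987700) lay 2907 bp from the start, in an intron of a long Hoxc5 transcript, and had heights of 4.87 and 1.83, above 90.7% and 79.8%. It was the only region called in both in the whole Hoxc window. The region upstream of Hoxd8 (chr2:74702301-74702500) lay 2115 bp from the start in intergenic DNA, with heights of 3.51 and 1.71, above 84.0% and 77.8%. All 4 were higher than 77.8% or more of the peaks of each library, and none was higher than more than 90.7%. The intergenic and intronic ones are printed whole, on the plus strand of mm10, with the best match in capitals.
Upstream of Hoxb8: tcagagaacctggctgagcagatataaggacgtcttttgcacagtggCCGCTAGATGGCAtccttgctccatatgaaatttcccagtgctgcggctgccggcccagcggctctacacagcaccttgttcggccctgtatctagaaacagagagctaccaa
Upstream of Hoxc8: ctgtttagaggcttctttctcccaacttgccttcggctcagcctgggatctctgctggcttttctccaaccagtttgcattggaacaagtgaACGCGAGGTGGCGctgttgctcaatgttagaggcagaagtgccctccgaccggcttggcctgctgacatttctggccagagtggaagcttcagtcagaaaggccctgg
Upstream of Hoxd8: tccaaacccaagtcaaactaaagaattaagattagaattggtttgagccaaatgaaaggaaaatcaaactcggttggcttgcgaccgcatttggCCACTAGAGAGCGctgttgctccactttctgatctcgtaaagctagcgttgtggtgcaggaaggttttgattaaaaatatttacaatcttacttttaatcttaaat

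**Figure D2:**
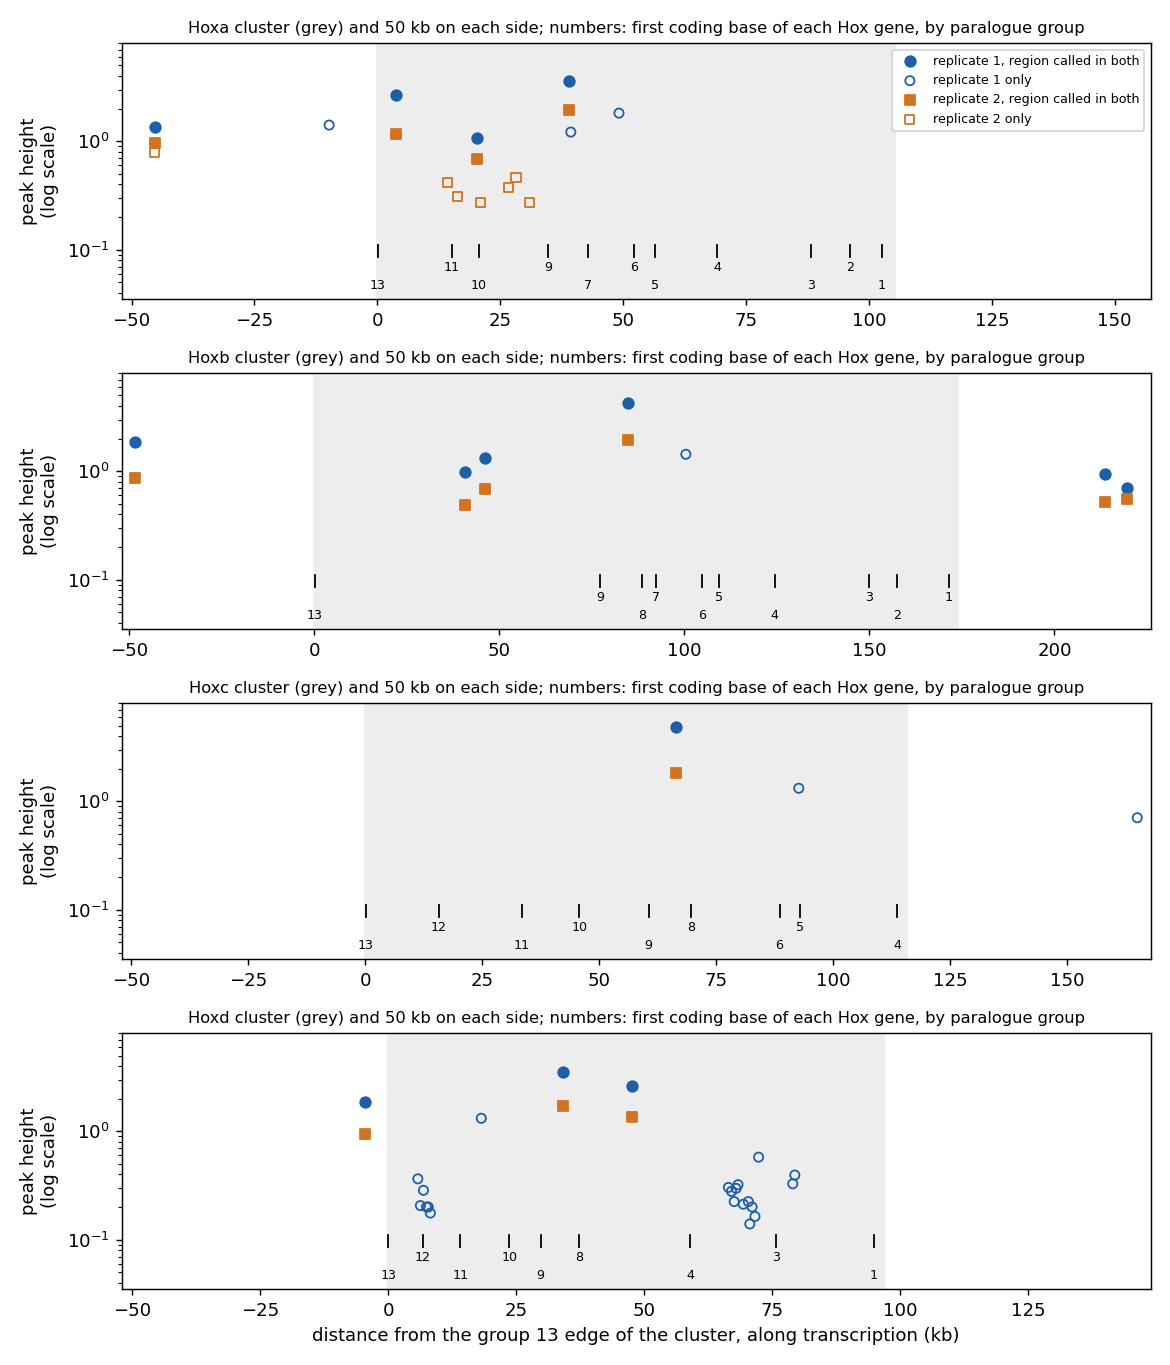
Height of each peak of the shorter lists (log scale) against its distance in kb from the group 13 edge of the cluster, along transcription, for replicate 1 (circles) and replicate 2 (squares); filled points are regions called in both libraries and ticks mark the first coding base of each Hox gene. In each panel the highest filled pair lies between groups 9 and 8 (9 and 7 in Hoxa), with heights of 3.51 to 4.87 in replicate 1, and the open points gather low in Hoxd (replicate 1) and Hoxa (replicate 2).

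The other 5 regions called in both inside a cluster were spread over Hoxa, Hoxb and Hoxd. In Hoxa, the second promoter region (chr6:52240441-52240700) lay 95 bp from a Hoxa10 start, with heights of 1.06 and 0.684, below the middle of both lists (44.8 and 32.6% of peaks lower). It held a CTCF-type match with 1 mismatch, also in the direction of transcription. Nearest to Hoxa13, the gene of the hindmost group, a region at chr6:52257041-52257220 had heights of 2.69 and 1.16. It lay 3582 bp from the Hoxa13 start, in an exon of the noncoding transcript 9530018H14Rik. In Hoxb, regions at chr11:96235023-96235220 (0.979 and 0.488) and chr11:96240321-96240480 (1.34 and 0.684) lay in the long intergenic stretch between Hoxb13 and Hoxb9. In Hoxd, a region at chr2:74715841-74716040 lay 3912 bp from the nearest Hoxd4 start, in an exon of the antisense transcript Hoxd3os1. It had heights of 2.64 and 1.37, the next in Hoxd after the region upstream of Hoxd8.

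The flanks held 5 more regions called in both. The Hoxa flank on the group 13 side had 1 at chr6:52305951-52306220 (1.36 and 0.965), and that of Hoxd had 1 at chr2:74663701-74663824 (1.85 and 0.937), 4486 bp from the Hoxd13 start. On the group 13 side of Hoxb, chr11:96145681-96145880 (1.86 and 0.870) lay in an intron of Ttll6. On its group 1 side, chr11:96407781-96407998 (0.942 and 0.522) and chr11:96413741-96413960 (0.699 and 0.555) were below the middle of both lists. The shares of peaks lower were 38.7 and 17.6% for the former and 23.9 and 20.7% for the latter. No region called in both lay in either flank of Hoxc or on the group 1 side of Hoxa and Hoxd. Outside the 50 kb limits the nearest one was 6.99 kb further out on the group 4 side of Hoxc, and on the group 13 side of Hoxa it was 132 kb further out.

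CTCF-type matches with at most 1 mismatch, on either strand, were present in 7 of the 14 regions, or 50%, and in 24.9% of all 48877 regions called in both. Away from protein-coding starts the counts were 5 of 12 Hox regions (41.7%) and 32.3% of 29388 regions, a smaller gap on 12 regions. A footprint of both libraries overlapped 6 of the 7 matches, against 87.6% of the regions with a match in the genome; the exception was chr11:96407781-96407998, with a footprint in replicate 2 only. Homeodomain cores (TAATTA), the sequence that Hox proteins and many other homeodomain factors read, were found in 1 of the 14 regions (2.58% of all regions). None of the 14 held the HOX-PBX composite TGATNNAT (5.15% of all), the posterior Hox site TTTATGG (1.78%), AP-1 (TGANTCA, 9.99%), YY1 (AANATGGCG, 2.51%), the REST motif by name with up to 2 mismatches (2.83%) or the DR5 retinoic acid element (0.0409%). With 14 regions and these shares, none or 1 is a count that can be read no further.

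**Figure D3:**
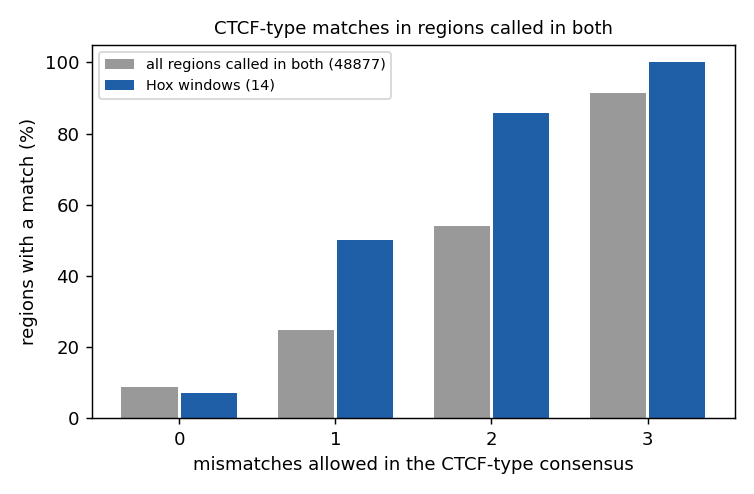
Percentage of regions called in both libraries that hold a match to the CTCF-type consensus, by the number of mismatches allowed, for all 48877 regions (grey) and the 14 of the Hox windows (blue). With 1 mismatch the values are 24.9% and 50%, with 2 they are 54.1% and 85.7%, and with none 8.86% and 7.14%.

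Heights in the Hox regions leaned further towards replicate 1 than elsewhere. The height in replicate 1 divided by that in replicate 2 had a median of 1.97 over the 14 Hox regions and 1.34 over all regions called in both, and 13 of the 14 lay above the median of all. The ratio also moved with CTCF-type matches. Over all regions away from starts the median ratio was 1.88 with a match and 1.19 without, and in the Hox windows it was 2.01 in the 7 with a match and 1.95 in the 7 without. The cause of the ratio was not tested.

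**Figure D4:**
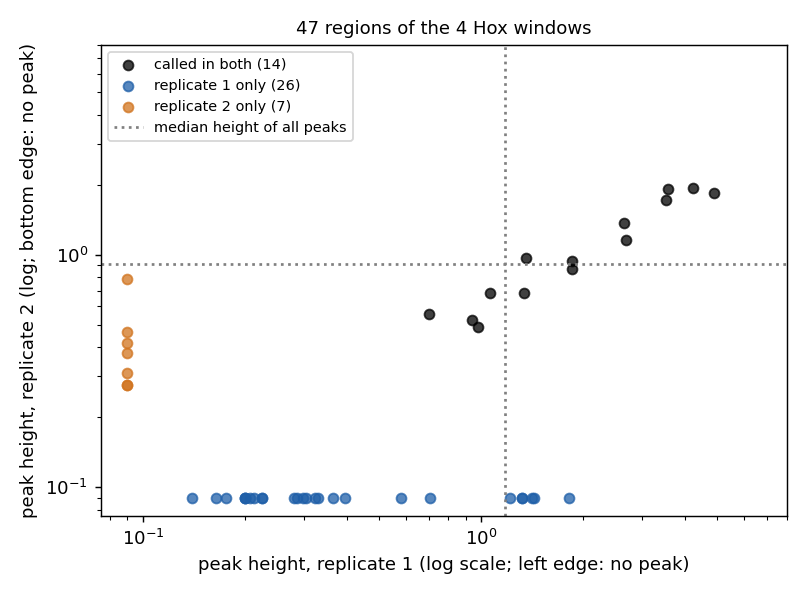
Peak height in replicate 1 (horizontal) against replicate 2 (vertical), both on log scales, for the 47 regions of the Hox windows; regions without a peak in a library are drawn at its edge, and dotted lines mark the median height of all peaks. The 14 regions called in both run from 0.699 to 4.87 in replicate 1, and most regions of 1 library stand below the medians.

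The remaining promoter peaks came from the longer lists or from 1 library. Hoxc5 had a peak of height 1.32 within 1 kb of a start in replicate 1, and only a longer-list peak of 0.488 in replicate 2. Hoxc6 had longer-list peaks of 0.742 and 0.606, near the middle of those lists (53.0 and 52.4% of peaks lower). Hoxa4 (0.705) and Hoxd1 (0.565) had a longer-list peak in replicate 1 and none in replicate 2. Hoxb3 had 1 of 0.471 in replicate 2, and the region it belongs to, called in both, comes within 1 kb of its start. Counting any list and any library, 11 of the 39 genes had a peak within 1 kb of a start, and group 3 (Hoxb3 and Hoxd3) was the only paralogue group with more than 1 such gene.

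A run of low peaks covered part of Hoxd in replicate 1 and part of Hoxa in replicate 2. In the Hoxd window 19 of 24 peaks of replicate 1 were below the 10th percentile of that library's heights, or low, against 10.3% of all its peaks, and the 3 peaks of replicate 2 there were not. Inside the Hoxd cluster 20 peaks below the 20th percentile, 0.140 to 0.578 in height (median 0.252), lay between positions 74673861 and 74747750 of chromosome 2, beside Hoxd12 and Hoxd3. Hoxd12 had 4 of these peaks within 1 kb of its start (up to 0.365) and Hoxd3, which has 6 annotated starts, had 10 (up to 0.578). None met a peak of replicate 2 in the shorter list, and 1 met one in the longer list, of height 0.415. In the Hoxa cluster 6 such peaks of replicate 2, 0.275 to 0.466 in height (median 0.342), lay between positions 52229898 and 52246720 of chromosome 6, from Hoxa9 to Hoxa11, and none met a peak of replicate 1 in either list. They include the peaks at Hoxa9 (0.275) and Hoxa11 (0.415), and 3 of the 4 at Hoxa10.

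Rates and footprints showed the same split between the libraries. They come from the same libraries as the peaks, so they are not separate support for it. Positions under 0.05 made up 10.4% of the Hoxd cluster in replicate 1 and 0.606% in replicate 2. In the Hoxa cluster they made up 1.499% in replicate 1 and 6.80% in replicate 2. Hoxb (1.30 and 1.28%) and Hoxc (0.686 and 0.740%) were below the 1.51 and 1.62% of the chromosomes as a whole in both libraries. Within the Hoxd run of replicate 1 the lowest rate per region went from 4.19e-28 to 0.000362. It was 2.47e-13 in the highest Hoxd region, so a low height did not always go with a high rate. Footprints followed: the Hoxd cluster held 43 in replicate 1 and 5 in replicate 2, Hoxa 17 and 43, Hoxb 22 and 17, and Hoxc 9 and 8. Over the 4 windows there were 123 footprints in replicate 1 and 106 in replicate 2, of which 38 and 39 had one of the other library within 10 bp. The same share over all footprints was not computed, so these counts do not say whether the windows differ from the rest.

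**Figure D5:**
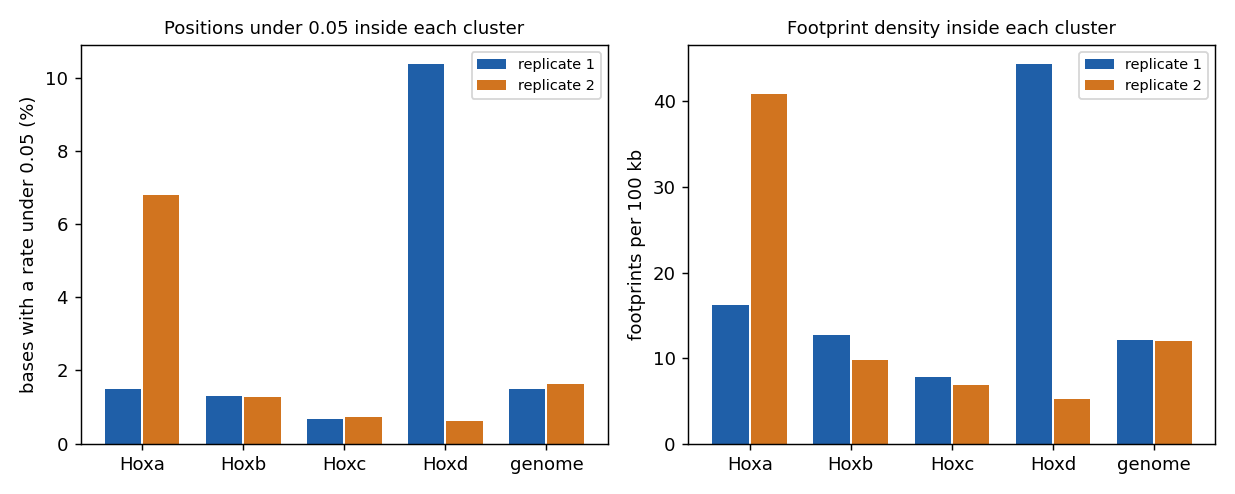
Left, percentage of bases with a deposited rate under 0.05 inside each Hox cluster and on chromosomes 1 to 19 and X, for replicate 1 (blue) and replicate 2 (orange); right, footprints per 100 kb in the same areas. Hoxd stands at 10.4 and 0.606% and Hoxa at 1.499 and 6.80%, while Hoxb and Hoxc lie below the chromosomes as a whole in the left panel.

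Such runs were not restricted to Hox clusters. Bins of 10 kb with at least 5 low peaks numbered 367 in replicate 1 and 207 in replicate 2, and held up to 18. Of the 367, 2 fell in the Hoxd cluster, with 11 and 6 low peaks, and 61 bins held more than 11. No bin of the Hoxa window reached 5. Over the genome 16.4% of the low peaks of replicate 1 and 24.2% of those of replicate 2 fell in a region called in both libraries, and in the Hoxa and Hoxd windows none did. What sets these runs was not tested.

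Few other genes in the windows had an accessible start. Of 60 other annotated genes with a start there, 2 had a region called in both within 1 kb, 9530018H14Rik and Hoxd3os1 (heights given above). Both are among the 56 that are not protein-coding, a kind of gene for which the share over all chromosomes was 11.9%. None of the 4 other protein-coding genes there had one, among them Evx2, a homeobox gene beside Hoxd13 with a longer-list peak of 0.707 in replicate 2. All 7 microRNA genes lacked one, where 12.1% of all microRNA genes had one. Mir10a, Mir10b, Mir196a-1 and Mir196a-2 had no peak in any list. Mir196b had a peak of 0.275 in replicate 2, within the low run beside Hoxa9. The long noncoding RNAs Hotair, Hottip and Hotairm1, known for regulating Hox genes, also had no peak in any list.

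Short lists of genes related to the Hox family, chosen with earlier results known, were compared with all genes by count only. Among Evx neighbours and ParaHox genes, the closest relatives of the clusters, 1 of 8 had a promoter region called in both, against 61.6% of all genes. That gene was Gsx1 (1.17 and 0.623), while Cdx1, Cdx2 and Cdx4 had none. Homeobox genes of the forebrain had one in 13 of 21, close to the share of all genes. Those with a region included Pou3f3 (5.51 and 4.24) and Lhx2 (3.76 and 2.74), and Dlx1, Dlx2 and Dlx6, of the interneuron lineage, lacked one. TALE cofactors, the homeodomain partners that bind DNA together with Hox proteins, had one in 8 of 9, among them Pknox1 (7.005 and 5.66) and Pbx4 (3.68 and 3.53). Meis3 had a peak in replicate 1 only (1.52).

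The chromatin regulators of Hox clusters had open promoters, as did 61.6% of all protein-coding genes and 95.8% of CpG-rich ones. All 26 genes of the Polycomb list, which encode the writers and readers of repressive histone marks, had a promoter region called in both libraries. By the mean of both heights, which carries the unstated factors, the first 3 were Pcgf1 (12.1 and 6.74), Cbx8 (8.67 and 6.71) and Jarid2 (7.47 and 7.21). Of 9 trithorax-group and demethylase genes, which oppose Polycomb, 8 had one, the first 3 by the same mean being Kdm6a (11.8 and 8.98), Kmt2a (12.0 and 6.13) and Wdr5 (7.64 and 4.88), and Kdm6b had none. Most of these are genes used in many tissues, and an open promoter does not say what the protein does at the Hox clusters.

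Short marker lists were compared by count only, beside the 61.6% of all protein-coding genes with a promoter region called in both. They are too short to settle the make-up of the tissue. All 7 markers of cortical excitatory neurons had a promoter region called in both, among them Neurod2 (3.004 and 1.85). Of 11 genes of hindbrain and spinal cord, where Hox genes are used, 2 had one, among them Egr2 (2.82 and 2.75), which is also used in other cells, and En1, En2 and Gbx2 had none. Of 6 blood and marrow genes, another site of Hox use, none had a promoter peak of the shorter lists in any library. Of 6 vessel and meninges genes, 3 had one: Col1a1 (3.49 and 2.59), Foxc1 (1.65 and 1.36) and Tbx18 (0.657 and 0.634). With the longer lists the counts, in the same order, were 7 of 7, 7 of 11, 0 of 6 and 6 of 6, against 66.1% of all genes.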

How the data were processed

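Members and lists were chosen with earlier results of these data known. Per the deposited read-me text, each library's peaks, footprints and cut-rate false discovery rates were made on mm10. Neither the aligner nor the caller was given in the sources used here. The authors' deposited peak height is a signal value with an unstated factor per library. The rates, deposited by the authors, are false discovery rates, treated as p-value type numbers, and list positions under 0.05. The deposited footprint score, a fraction, is constant, so positions alone were used.

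Analysis used Python 3.11.15, pysam 0.24.0 and samtools 1.23.1 on chromosomes 1 to 19 and X, with GENCODE M21 and the GRCm38.p6 sequence. Replicates 1 and 2 had 69185 and 69111 peaks in the shorter lists, 119984 and 120656 in the longer. Regions were assigned by centre, and a promoter was within 1 kb of any annotated start, so transcripts with distant starts widen it. Named were all Hox genes, regions called in both inside clusters, the 2 highest per flank and, per list, the 3 highest promoters and up to 3 without one. Some genes that this rule takes are left out of the text. Functions were tested on planted peaks and motifs. Depth in reads is unknown, and 2 libraries limit precision. The height ratio and low runs were chosen after seeing the data.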

Additional observations from a re-analysis of the deposited data

How the results depend on the processing

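The 2 Hox promoters with a region called in both were again 2 with reciprocal overlap of 50% and with promoter windows of 500 bp or 2 kb, 1 with peaks above the median height (Hoxa7), 7 with the longer lists, and 4 to 5 with either library alone. The 14 regions were again 14 with reciprocal overlap and without peaks below the 10th percentile of each list, 10 with 20 kb flanks, 9 with no flank, 8 above the median height, 25 with the longer lists, and 21 to 40 with either library alone. Hox promoters with a position under 0.05 in both numbered 6, 4 within 500 bp, 3 under 0.01, 2 under 0.001, and 8 to 9 in either library alone. Footprints averaged 114.5 per library, 82 with no flank, 38.5 with a footprint of the other library within 10 bp, and 106 to 123 by library. CTCF-type matches were in 7 of 14 regions, 1 with no mismatch and 12 with 2 mismatches, a choice added after seeing the data. In each case fewer or more peaks, positions or bases entered by construction. No paired analysis was possible because the libraries form 1 group. Counts over single libraries include the low runs in Hoxd and Hoxa. Heights cannot be converted to reads, so how far depth limits the closed promoters is unknown.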
